A study of Mus musculus with 4 samples.

Results

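Tff1-high Epcam-low epithelial cells are keratin-rich cells of mouse pancreatic tumors that carried many transcripts of Tff1, which encodes a trefoil peptide secreted by the stomach surface epithelium, and few or no transcripts of Epcam, an adhesion protein of most epithelia. They numbered 314 of 7984 cells in the series, 299 of them from tumor 1 and 15 from tumor 2. A cell was a member when it had at least 20 Krt8 and Krt18 transcripts per 10000 transcripts of the cell, under 3 of Epcam and at least 10 of Tff1. It also had no Ptprc transcript (CD45, of leukocytes), at most 1 of 4 mesothelial genes, under 5 of 8 cell cycle genes, under 5 transcripts of Npy, Cpe and Ptprn per 10000, and under 4 of the 6 genes Ttr, Sprr1a, Cyp2s1, Adh7, Gkn2 and S100g. Members were thus chosen by measured transcript levels, and Tff1, Epcam, Krt8, Krt18 and the other genes among the 26 used by the rule are described here and not tested.

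Transcripts were counted as unique molecular identifiers (UMIs) in droplet 3' single-cell RNA-seq. Both tumors came from KPC mice, whose alleles KrasLSL-G12D/+ and Trp53LSL-R172H/+ are switched on by Pdx1-Cre in the pancreatic lineage, on a C57BL/6J background, and the labels give no age. From each tumor 1 library held sorted cells called CAFs (cancer-associated fibroblasts), and 1 library held all live (DAPI-negative) cells. The protocol gives the CAF gate as negative for DAPI, CD45, CD31 and EpCAM and positive for PDPN, but the antibodies it lists are against CD31, CD45, PDPN and PDGFRa, with none against EpCAM, so whether EpCAM protein was gated is uncertain. All 4 libraries carry the mutant alleles, and no comparison here uses an untreated or wild-type control. The libraries held between 14972652 and 30950993 UMIs.

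Tff1 belongs with the gastrokines and gastric mucins to the products of the foveolar (pit) cells of the stomach, which coat and repair its surface. Pancreatic ductal tumors of humans and mice often switch on this gastric program, which then stands among the markers of the classical, differentiated type of tumor. EpCAM joins epithelial cells to each other together with claudins and E-cadherin, and its loss is one of the features that tumor epithelium can share with mesenchymal cells.

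The members were counted in each library first. In sorted CAF library 1 they made up 156 of 1402 cells (11.1%, 95% Clopper-Pearson interval 9.53 to 12.9), and in all live library 1 143 of 1933 (7.40%, 6.27 to 8.66). In sorted CAF library 2 they made up 12 of 1222 cells (0.982%, 0.508 to 1.71), and in all live library 2 3 of 3427 (0.0875%, 0.0181 to 0.256). Tumor 1 thus held nearly all of them, in the gated and the ungated suspension alike. An exact permutation test on 2 libraries against 2 has a smallest two-sided p of 0.333, so none was made, and the intervals cover counting error only. The gate of the sorted libraries required PDPN protein, yet a Pdpn transcript was seen in 1.28%, 2.10% and 8.33% of members in sorted CAF 1, all live 1 and sorted CAF 2, at median depths of 14805, 13142 and 15868 UMIs. Among cells chosen for fibroblast collagens, the same shares were 79.4%, 88.3% and 85.6% at 7007, 8070 and 10718 UMIs. Leukocytes had one in 14.7% of cells in all live 1 and 6.90% in sorted CAF 2, at 6695 and 5398 UMIs. In these libraries the members' Pdpn shares did not stand above those of leukocytes beyond 1 of 12 cells in sorted CAF 2. Sorted CAF 1 held no cells of the leukocyte gate, and whether leukocytes lack Pdpn was not tested. A total of 3 members had a barcode that also stood in another library.

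Tff1 varied widely within the members. Its median was 59.3 transcripts per 10000 in sorted CAF 1 (lowest 10.3, highest 501), 67.8 in all live 1 (10.2 to 691), 52.3 in sorted CAF 2 (10.2 to 284) and 22 in the 3 cells of all live 2 (17.5 to 23.5). The limit cut through a continuous range: the 3 members nearest to it stood at 10.16, 10.21 and 10.24, and the 3 nearest cells below it at 9.95, 9.80 and 9.55. For Epcam, the 3 highest members stood at 2.68, 2.51 and 2.14, and the 3 lowest cells kept out by Epcam alone at 3.39, 4.49 and 4.58. Of the 528 cells that met every other condition, 61 had no Tff1 transcript, 45 lay between 10 and 20 and 34 lay at 200 or more. The other 214, here called Tff1-low cells, came from the same libraries (79 from sorted CAF 1, 75 from all live 1, 43 from sorted CAF 2 and 17 from all live 2). Members were 66.4% of these 2 classes in sorted CAF 1, 65.6% in all live 1, 21.8% in sorted CAF 2 and 15% in all live 2.

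**Figure D1:**
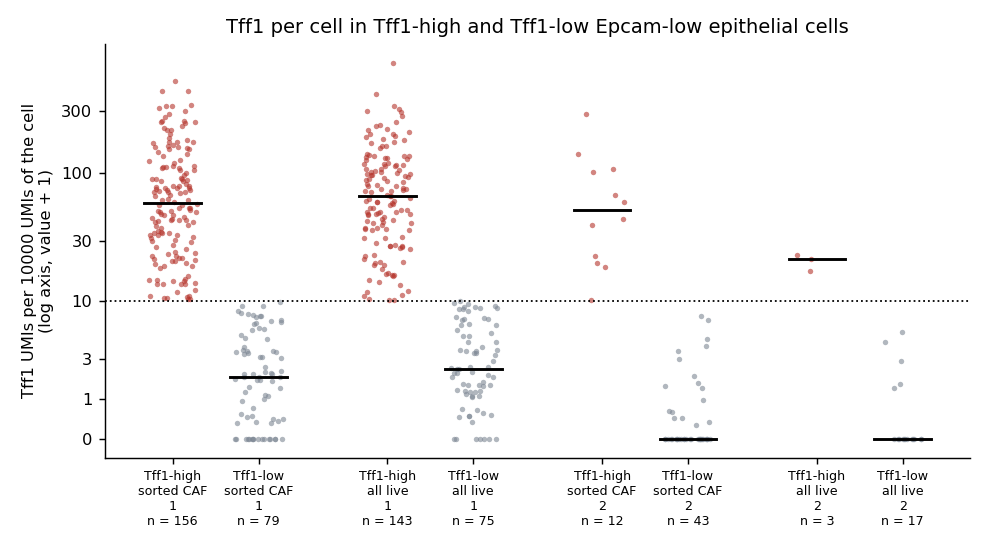
Tff1 transcripts per 10000 transcripts of the cell (log axis, value + 1) in every Tff1-high (red) and Tff1-low (grey) cell, by library. Bars mark medians and the dotted line the limit of 10 that separates the classes, which the values cross without a gap in both libraries of tumor 1.

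The label of the cells was checked against its markers. Levels are in CPM, the UMIs of a gene scaled to the total UMIs of the class in that library. Anxa10, an annexin of the stomach epithelium, stood at 662 CPM in members of sorted CAF 1, 760 CPM in all live 1 and 512 CPM in sorted CAF 2. Gsta1, a glutathione S-transferase of detoxification, stood at 1017, 1023 and 426 CPM, and Wfdc2, a secreted protein of mucosal epithelia, at 1583, 1651 and 1369 CPM in the same order. With ribosomal, mitochondrial and rule genes left out, S100a6, a calcium-binding protein, was the most abundant transcript in members of tumor 1. It stood at 24695, 26781 and 18871 CPM in the same order. Over both libraries of tumor 1 these came to 711 ± 69.2 CPM for Anxa10, 1020 ± 4.08 for Gsta1, 1617 ± 48.3 for Wfdc2 and 25738 ± 1475 for S100a6 (SD, n = 2 libraries). Tff1 itself stood at 8183, 9144 and 6847 CPM.

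After thinning each cell to 5000 UMIs, a Gsta1 transcript was seen in 87.1% of members in sorted CAF 1 and 84.4% in all live 1 (94.9% and 97.2% before thinning), against 7.77% of leukocytes of all live 1. Anxa10 was seen in 84.4% and 90.1% of members (92.3% and 95.8% before thinning) and in 3.63% of those leukocytes. Tff1 was seen in every member, by the rule, and also in 22% of leukocytes and 18.4% of fibroblasts of all live 1. A transcript of Tff1 alone thus did not set members apart from these cells, and the source of such transcripts was not tested. The shares for Gsta1 and Anxa10 in members stood far above those of leukocytes of all live 1. Other epithelial genes were uneven. Krt19, a ductal keratin, stood at 2611, 2479 and 1488 CPM and Cdh1, E-cadherin, at 99.8, 110 and 141 CPM, while the claudin gene Cldn4 had 0 UMIs in members of all 3 libraries. Epcam had no UMI in 286 of the 314 members. The gastric genes were uneven too: Ctse, a gastric protease, stood at 705, 684 and 605 CPM, but Muc5ac, the foveolar mucin, had no UMI in 310 of the 314 members. Tff2, the trefoil peptide of gastric glands, had none in 299 of them and stood at 1.18 CPM in sorted CAF 1, 6.93 CPM in all live 1 and 294 CPM in sorted CAF 2. Members thus carried Tff1 and Ctse with hardly any Muc5ac, and Tff2 mainly in the few cells of tumor 2. Tff1 lies on chromosome 17 (31161395 to 31165277, minus strand), Gsta1 on chromosome 9 (78230656 to 78242684, plus strand) and Gkn1 on chromosome 6 (87345650 to 87350942, minus strand) of mm10.

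Markers of other cell types were not all low. In members of sorted CAF 1, all live 1 and sorted CAF 2 the summed level of 10 macrophage genes was 76.2, 205 and 29.8 CPM, with Lyz2, C1qa and C1qb at 0 in sorted CAF 1. For 8 neutrophil genes it was 4.32, 199 and 17.1 CPM, and for 10 fibroblast genes 115, 64.0 and 1010 CPM. The 6 mesothelial genes outside the rule summed to 188, 205 and 465 CPM, nearly all from Msln (187, 204 and 465 CPM), which encodes mesothelin, a surface protein of mesothelium and of many pancreatic tumors. The 8 endothelial genes summed to 77.0, 115 and 38.4 CPM, of which Pecam1, the gene of CD31, made 61.7, 87.6 and 29.8 CPM, while Kdr, Emcn and Plvap were at 0. All 8 endocrine genes were at 0 in each of the 3 libraries, and the 11 acinar genes summed to 67.6, 71.7 and 64.0 CPM, with Cpa1, Pnlip and Try4 at 0. The leukocyte genes thus stood higher in the ungated library, and the fibroblast genes in sorted CAF 2.

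The closest comparison set the members against the Tff1-low cells of the same libraries. Higher in the members were 7 of 10 tested genes of the gastric list (among them Gkn1 and Dpcr1), 17 of 36 of the glutathione and NRF2 list (Gsta1, Nqo1 and Ephx1), 3 of 10 basal and squamous genes (Krt6a and Krt14) and 5 of 10 S100 genes. Lower were 5 of 19 tested genes of a list of p53 targets and related genes, and 5 of 21 lineage transcription factors (Sox9 and Sox11). Btg1, Cdkn1c and Gadd45a, which restrain the cell cycle, were lower as well. In edgeR's quasi-likelihood test on UMIs summed per class in sorted CAF 1 and all live 1, blocked by library, 505 of 8571 genes passed (5.89%), of which 268 rose (3.13%) and 237 fell (2.77%) in Tff1-high cells at a Benjamini-Hochberg adjusted p under 0.05. Both libraries come from 1 tumor, so these p-values cover the spread between its libraries and not between animals. The count was 101 without sorted CAF library 1 and 28 without all live library 1, both with sorted CAF 2 in the fit, 26 without the block and 41 without the cells of high doublet scores. Under the 11 alternative settings other than left-out libraries 7 genes passed each time: Gsta1, Aldh3a1, Krt6a, Lgals2, Fabp5 and Crip1 as higher and Btg1 as lower. Of these, 5 also passed with each library left out, and Crip1 and Btg1 did not. Leaving out sorted CAF 2 gave the main fit again, with 505 calls. Krt6a had 0 UMIs in both classes of sorted CAF 2, so without 1 library of tumor 1 its call rested on the other.

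Among the gastric genes, Gkn1 encodes gastrokine 1, a protein of the stomach mucus layer. It stood at 126 CPM in Tff1-high cells of sorted CAF 1, 117 CPM in all live 1 and 119 CPM in sorted CAF 2, against 10.2, 22.2 and 15.4 CPM in Tff1-low cells of the same libraries. The sums of the classes did not overlap, and Gkn1 rose by 3.01 ± 0.20 on the log2 scale (SE, n = 2 libraries, adjusted p = 2.15e-16 by edgeR). The share of all tested genes without overlap was not counted, here or for the genes below. Median Gkn1 per cell, in the unit used for Tff1, was 0 in Tff1-high cells of sorted CAF 1 and all live 1. Their upper quartiles were 0.575 and 0.495 and their highest values 65.8 and 38.5. The highest Tff1-low values there were 2.17 and 5.16. The Tff1-high sums of Gkn1 in tumor 1 thus rested on a minority of the cells. In sorted CAF 2 the Tff1-high median was 0.772. Dpcr1, a mucin-like membrane protein, stood at 120, 121 and 89.5 CPM in Tff1-high cells, against 30.5, 33 and 4.73 CPM in Tff1-low cells (log2 fold change 2.03 ± 0.17). In all, 7 of the 10 tested genes of the gastric list that the rule did not use rose and 0 fell, with a median log2 fold change of 0.36 beside -0.0076 over all genes. Muc1, a membrane mucin, rose by 0.53 ± 0.11 and Vsig1, a junction protein of gastric epithelium, by 0.48 ± 0.12. Anxa10 did not pass: 662 and 760 CPM in Tff1-high cells, against 691 and 603 CPM in Tff1-low cells of sorted CAF 1 and all live 1 (0.25 ± 0.10, adjusted p = 0.133 by edgeR). The 13 further genes of the list had too few counts to be tested. Tff1 was used to choose the classes, and genes that move with it, of this list or of the others, were thereby chosen in part as well.

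The sequence upstream of Gkn1 and of Gsta1 is shown because these genes had the lowest p of the gastric and of the glutathione and NRF2 list. The 250 bases before each gene's start, from RefSeq for GRCm38.p6, were searched on both strands for TGACNNNGC, the core of the antioxidant response element, for TGANTCA, the AP-1 motif, and for TATAAA. Capitals mark the match to TGANTCA, 174 bases before the RefSeq start of Gkn1. The GENCODE gene positions given above start further upstream, so the window holds 27 bases of the GENCODE gene for Gkn1 and 13 for Gsta1, and the match lies 147 bases before the GENCODE start. The windows lie at chr6:87350916-87351165 on the minus strand and chr9:78230419-78230668 on the plus strand.
Gkn1: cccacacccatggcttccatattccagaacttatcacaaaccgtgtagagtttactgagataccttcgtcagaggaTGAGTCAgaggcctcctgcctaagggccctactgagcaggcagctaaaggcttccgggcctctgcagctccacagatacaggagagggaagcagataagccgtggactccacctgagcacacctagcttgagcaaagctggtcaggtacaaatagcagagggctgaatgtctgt
Gsta1: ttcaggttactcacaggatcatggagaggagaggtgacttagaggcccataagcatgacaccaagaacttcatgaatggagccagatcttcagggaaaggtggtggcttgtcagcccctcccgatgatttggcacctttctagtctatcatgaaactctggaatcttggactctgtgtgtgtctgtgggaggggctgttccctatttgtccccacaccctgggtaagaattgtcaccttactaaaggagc
The window of Gkn1 held 1 TGANTCA and that of Gsta1 none of the 3 motifs. The window of Nqo1, a gene of the same list with a like change, was searched too and held TATAAA once, 29 bases before its start. Of 32536 such windows in the table, 6.73% held TGANTCA, 10.2% TGACNNNGC and 12.3% TATAAA. A match is a description of these letters and not a binding site.

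Among the lists, the detoxification genes held the most calls. Gsta1 stood at 1017, 1023 and 426 CPM in Tff1-high cells of sorted CAF 1, all live 1 and sorted CAF 2, against 320, 352 and 49.7 CPM in Tff1-low cells. Every Tff1-high value lay above every Tff1-low value, and Gsta1 rose by 1.71 ± 0.10 (SE, adjusted p = 1.75e-19 by edgeR). Its close paralog Gsta2 shares sequence with it, so reads of the pair may be split or lost. Nqo1, a quinone reductase, stood at 93.5, 66.8 and 4.26 CPM in Tff1-high cells, against 24.7, 25.8 and 2.37 CPM in Tff1-low cells (1.76 ± 0.19), so that tumor 2 cells of either class hardly carried it. Aldh3a1, an aldehyde dehydrogenase, stood at 176, 144 and 162 CPM in Tff1-high cells, against 92.2, 87.5 and 24.8 CPM in Tff1-low cells (0.94 ± 0.13). Of the 36 tested genes of the glutathione and NRF2 list (NRF2 is the transcription factor of the antioxidant response), 17 rose and 1 fell, with a median of 0.38. Ephx1, an epoxide hydrolase, rose by 1.57 ± 0.37, Cbr3, a carbonyl reductase, by 0.87 ± 0.17, Slc7a11, the cystine importer, by 0.80 ± 0.16 and Gsr, glutathione reductase, by 0.59 ± 0.09. The gene that fell was Gpx2, a gastrointestinal glutathione peroxidase, by 1.61 ± 0.19, and in tumor 2 its values ran the other way.

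Keratins and S100 proteins followed. Krt6a, a keratin of stressed stratified epithelium with a near-identical copy in Krt6b, stood at 233 and 219 CPM in Tff1-high cells, against 28.3 and 62.4 CPM in Tff1-low cells of sorted CAF 1 and all live 1, and had 0 UMIs in both classes of sorted CAF 2. It rose by 2.44 ± 0.16 (adjusted p = 1.23e-16 by edgeR). Krt14, a basal cell keratin, stood at 55.8, 49.7 and 25.6 CPM in Tff1-high cells, against 9.44, 19.4 and 0 CPM in Tff1-low cells (1.98 ± 0.24). Of 10 tested basal and squamous genes 3 rose and 1 fell, with a median of 0.39. Of 10 tested S100 genes 5 rose and 0 fell, with a median of 0.45. Among them were S100a6 (0.58 ± 0.08), S100a4 (0.79 ± 0.13) and S100a11 (0.43 ± 0.09), and S100a4 stood at 8.53 CPM in Tff1-high cells, against 153 CPM in Tff1-low cells, in sorted CAF 2. Lgals2, which encodes galectin-2, a sugar-binding protein of the gut, stood at 415, 263 and 234 CPM in Tff1-high cells, against 81.3, 60.3 and 87.5 CPM in Tff1-low cells (2.36 ± 0.13). Fabp5, a fatty acid carrier, stood at 1133, 1376 and 324 CPM in Tff1-high cells, against 601, 646 and 138 CPM in Tff1-low cells (1.11 ± 0.09).

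Lower genes followed. Btg1, an antiproliferative gene, stood at 208, 182 and 76.7 CPM in Tff1-high cells of sorted CAF 1, all live 1 and sorted CAF 2, against 404, 342 and 215 CPM in Tff1-low cells. It fell by 0.83 ± 0.11 on the log2 scale (adjusted p = 1.21e-07 by edgeR). Cdkn1c, which encodes the cell cycle inhibitor p57, stood at 18.9, 22.8 and 12.8 CPM in Tff1-high cells, against 66.1, 55.2 and 18.9 CPM in Tff1-low cells (-1.43 ± 0.21). Of the 19 tested genes of the p53 list 5 fell and 0 rose, with a median of -0.28. The list also holds Cdkn2a, Cdkn2b and Trp53, which are not p53 targets, and Cdkn2b was among the 5 (log2 fold change -0.58). Pmaip1, which encodes the apoptosis factor Noxa, fell by 0.70 ± 0.12, Cdkn1a, p21, by 0.57 ± 0.17, Btg2 by 0.41 ± 0.12 and Phlda3 by 0.53 ± 0.15. Gadd45a, a growth arrest gene, Ddit3, which encodes the stress factor CHOP, and Dnajb9, a chaperone of the endoplasmic reticulum, fell by 1.11 ± 0.22, 1.15 ± 0.17 and 1.02 ± 0.20, and kept their calls under 7, 7 and 6 of 11 alternatives. Of the immediate early and stress list 3 genes rose and 3 fell among 24: Hspa1a, a heat shock gene, rose by 0.94 ± 0.12, whereas Jun, an AP-1 subunit, fell by 0.70 ± 0.11.

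Of 21 tested lineage transcription factors 5 fell and 0 rose, with a median of -0.29. Sox9, the ductal and progenitor factor, stood at 5.89, 6.11 and 115 CPM in Tff1-high cells, against 39.9, 16.5 and 162 CPM in Tff1-low cells, and fell by 2.08 ± 0.34. Its level differed more between the tumors than between the classes. Sox11 fell by 0.71 ± 0.13, Onecut2, a liver and pancreas factor, by 0.52 ± 0.10 and Sox4 by 0.56 ± 0.13. Among 32 tested proliferation genes outside the rule 4 rose and 0 fell, with a median of 0.37. Mcm5, a replication licensing subunit, stood at 47.1, 43.2 and 21.3 CPM in Tff1-high cells, against 22.5, 29.4 and 7.10 CPM in Tff1-low cells (0.91 ± 0.21). No tested gene of the MHC class I, interferon or mucin glycosylation lists passed (10, 9 and 16 tested).

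**Figure D2:**
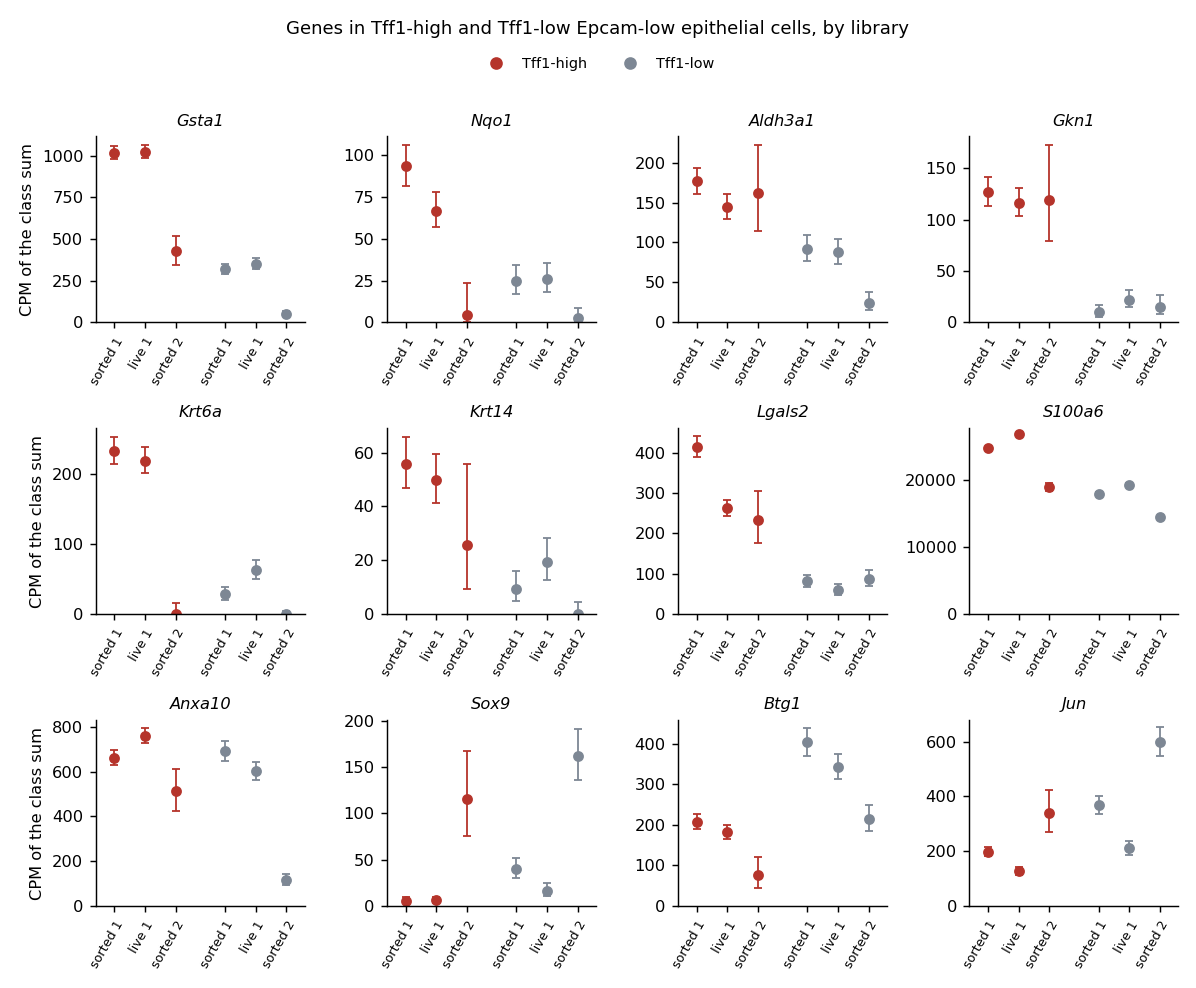
CPM of 12 genes in the UMI sums of Tff1-high (red, left) and Tff1-low (grey, right) cells of sorted CAF 1, all live 1 and sorted CAF 2, with exact 95% Poisson intervals that cover counting error only. Gsta1, Gkn1, Krt14 and Lgals2 lie higher in every Tff1-high sum, while Anxa10 overlaps in tumor 1 and Krt6a is at 0 in tumor 2.

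Some of the lower genes moved with leukocyte transcripts in 1 library. Lyz2, lysozyme of macrophages, stood at 0 and 58.3 CPM in Tff1-high cells, against 0.726 and 249 CPM in Tff1-low cells of sorted CAF 1 and all live 1. The 10 macrophage genes together stood at 76.2 and 205 CPM in Tff1-high cells, against 91.5 and 652 CPM in Tff1-low cells. Among 13 tested cytokine and chemokine genes 3 fell: Ccl2, Cxcl2 and Saa3. Ccl2 and Saa3 had their gap in all live 1 as well. Ccl2 stood at 3.53 and 9.37 CPM in Tff1-high cells, against 4.36 and 52.4 CPM in Tff1-low cells. Cxcl2 differed by -2.32 on the log2 scale in sorted CAF 1, on 1 UMI in Tff1-high cells, and by -0.77 in all live 1. Slpi, a secreted protease inhibitor, stood at 3.53 and 10.6 CPM, against 3.63 and 174 CPM. The part of leukocyte transcripts in these calls was not tested.

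Tumor 2 did not enter the fit behind the 505 calls, and its 12 Tff1-high and 43 Tff1-low cells of sorted CAF 2 were read for direction. Of 225 genes called higher in tumor 1 with enough counts, 178 were higher there too (79.1%, against 51.0% of all genes with a positive fold change). Of 206 called lower, 173 were lower (84.0%, against 69.7% of all genes with a negative one). Of the 78 called genes under the rule for named genes, 69 had at least 10 UMIs there, and 59 of these kept their direction while 10 turned. S100a4 turned furthest, and Gpx2 and Rbp4 after it. The acinar genes, at 64.0 CPM in these Tff1-high cells and 10164 CPM in the Tff1-low cells, moved with the classes in tumor 2 only, and their part in the directions was not tested.

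**Figure D3:**
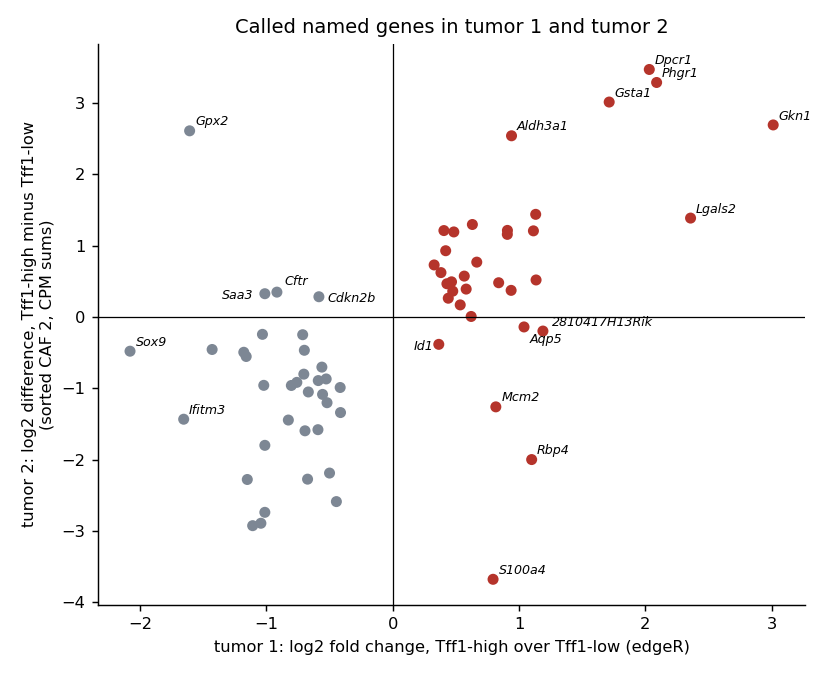
Log2 fold change of Tff1-high over Tff1-low cells in tumor 1 (horizontal, edgeR) and log2 difference between the same classes in sorted CAF library 2 of tumor 2 (vertical) for the 69 called named genes with at least 10 UMIs there, red for genes higher and grey for genes lower in tumor 1. A total of 59 genes share their sign, and S100a4, Gpx2, Rbp4, Mcm2, Id1, Cftr, Saa3, Cdkn2b, 2810417H13Rik and Aqp5 do not.

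Against Epcam-rich epithelial cells, which met the same conditions with Epcam at 3 or more and no Tff1 limit, the members carried few or no transcripts of some junction and secreted genes. The claudin genes Cldn3, Cldn4 and Cldn7, Rab25 and the inflammation products Lcn2, Mmp7 and Reg3g were near or at 0 in the members. Vim, Aldh3a1, Aqp1 and Il33 stood higher. Tff1-low cells of tumor 1 shared part of this. Cldn3 was at 0 in those of sorted CAF 1 and all live 1, and Cldn4 in those of sorted CAF 1. Cldn4 was seen in those of all live 1, and both genes in those of sorted CAF 2. Median Vim per cell, in the unit used for Tff1, was 18.3 and 19.1 in Tff1-low cells of sorted CAF 1 and all live 1. In members it was 19.1 and 22.4. In sorted CAF 2 it was 11.3 in Tff1-low cells and 19.8 in members. No library held 20 of both Tff1-high and Epcam-rich cells, so sums of at least 10 cells were used: 143 and 15 cells of all live 1, and 12 and 20 of sorted CAF 2. In edgeR's quasi-likelihood test blocked by library, 230 of 3519 genes passed (6.54%), of which 74 rose (2.1%) and 156 fell (4.43%) in Tff1-high cells. Here 1 library stands for each tumor, and the Epcam-rich sums are small, 148168 UMIs in all live 1 and 262964 in sorted CAF 2. The count was 59 without the block, 67 with DESeq2's size factors and 40 at a Tff1 limit of 5, and 15 genes passed under every alternative that could be fitted, among them Vim, Aldh3a1 and Vsig1 as higher and Cldn7, Lcn2, Sfn and Reg3b as lower.

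Cldn4, which encodes a tight junction strand protein, had 0 UMIs in Tff1-high cells of both libraries, against 952 CPM in Epcam-rich cells of all live 1 and 418 CPM in those of sorted CAF 2. With 3 counts taken as the floor of each sum, it was at least 778-fold lower in all live 1 and at least 32.7-fold lower in sorted CAF 2. Cldn3 was likewise at 0 in Tff1-high cells, against 891 and 491 CPM (at least 729-fold and 38.4-fold lower). Cldn7, whose product binds EpCAM, stood at 15.1 and 0 CPM in Tff1-high cells, against 729 and 696 CPM in Epcam-rich cells. Cldn6, Cldn2 and Cldn18 did not pass. Cldn6 stood at 131 and 102 CPM in Tff1-high cells, against 209 and 49.4 CPM in Epcam-rich cells, and Cldn2 at 24.0 and 196 CPM, against 175 and 171 CPM, while Cldn18, the claudin of gastric epithelium, stood at 2.85 and 439 CPM, against 0 and 194 CPM. Rab25, a vesicle traffic gene of epithelia, was at 0, against 87.7 and 98.9 CPM. The classes did not overlap for Cldn3, Cldn4, Cldn7 or Rab25, which describes these genes only. Epcam was used to choose the classes, and genes that move with it across epithelial cells were thereby chosen in part as well.

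E-cadherin differed less: Cdh1 stood at 110 and 141 CPM in Tff1-high cells, against 236 and 468 CPM in Epcam-rich cells (-1.39 ± 0.40, adjusted p = 0.0479 by edgeR). Krt19 did not pass, with 2479 and 1488 CPM in Tff1-high cells, against 2328 and 1141 CPM in Epcam-rich cells (0.25 ± 0.27). Of 17 tested ductal and epithelial genes 8 fell and 0 rose, with a median of -1.31 beside 0.0072 over all genes. Lcn2, an iron-binding defence protein, stood at 4.89 and 4.26 CPM in Tff1-high cells, against 1532 and 1084 CPM in Epcam-rich cells. Mmp7, a metalloproteinase of ductal epithelium, was at 0, against 1161 and 190 CPM. Reg3b, Reg3g and Reg1, secreted proteins of stressed acinar and gut cells, fell as well. In sorted CAF 2, Reg3b stood at 0 in Tff1-high cells, against 12321 CPM in Epcam-rich cells. The 11 acinar genes summed to 71.7 and 64.0 CPM in Tff1-high cells, against 175 and 39017 CPM in Epcam-rich cells, and the part of acinar transcripts in the Reg values was not tested.

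Vim, the intermediate filament of mesenchymal cells, stood at 2362 and 1876 CPM in Tff1-high cells of all live 1 and sorted CAF 2, against 256 and 110 CPM in Epcam-rich cells. It rose by 3.65 ± 0.35 (adjusted p = 4.53e-06 by edgeR) and was as abundant in members of sorted CAF 1, at 2261 CPM. Other genes of the mesenchymal transition list did not move together with it: 2 of 10 tested genes rose and 2 fell, with a median of -0.60, and Cd44, a hyaluronan receptor on that list, fell by 2.02 ± 0.41. The transition factors Zeb1 and Snai2 stood at 12.2 and 0.408 CPM in members of all live 1. Il33, an alarmin of epithelial nuclei, stood at 141 and 328 CPM in Tff1-high cells, against 13.5 and 34.2 CPM in Epcam-rich cells (3.26 ± 0.52). Aqp1, a water channel, stood at 145 and 136 CPM, against 0 and 3.80 CPM (5.76 ± 0.81).

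Of 28 tested glutathione and NRF2 genes 8 rose and 1 fell, with a median of 0.91. Gsta1 stood at 1023 and 426 CPM in Tff1-high cells, against 378 and 15.2 CPM in Epcam-rich cells (2.68 ± 0.55), and kept its call under 5 of 9 alternatives. Aldh3a1 stood at 144 and 162 CPM, against 6.75 and 0 CPM (5.85 ± 0.83). Of 19 tested glycolysis and hypoxia genes 4 rose and 0 fell, among them Ldha, lactate dehydrogenase, by 1.65 ± 0.31. Anxa10 rose by 2.08 ± 0.43 and S100a6 by 1.57 ± 0.19, while Wfdc2 did not pass (0.70 ± 0.33, adjusted p = 0.228 by edgeR). Of 11 tested genes of the p53 list 3 fell, Cdkn1a by 3.26 ± 0.47. Of 10 tested MHC class I genes 2 fell, B2m, the light chain of class I molecules, by 1.41 ± 0.38.

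**Figure D4:**
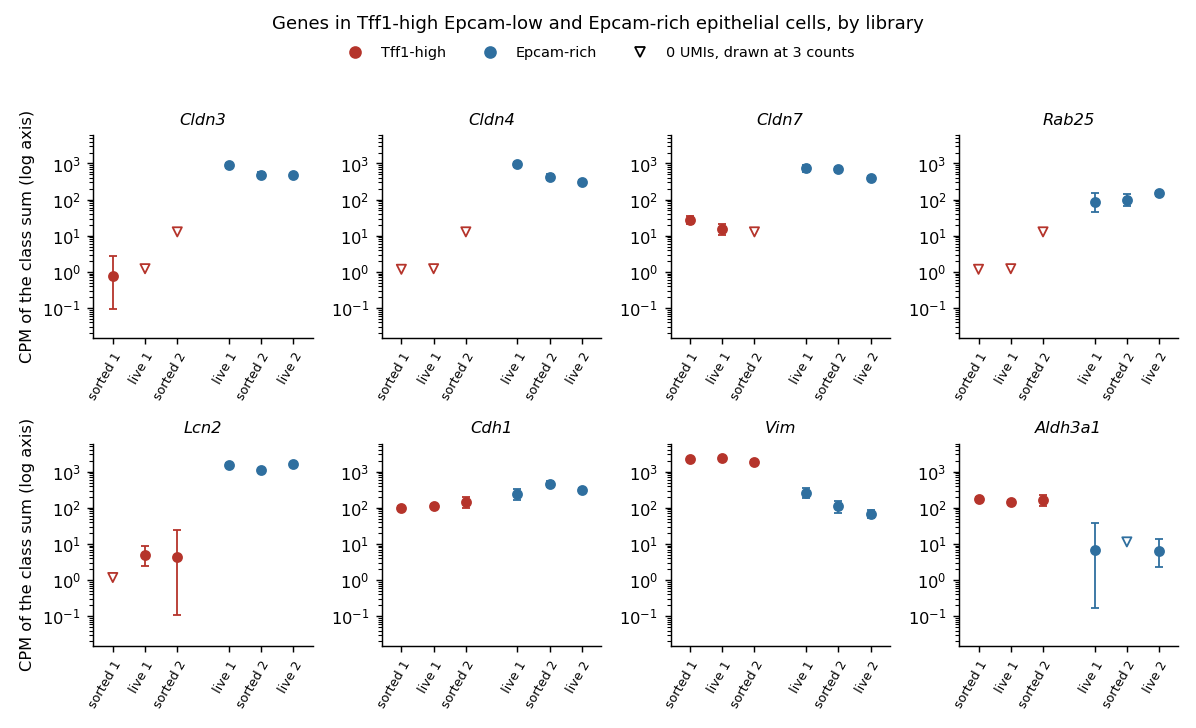
CPM (log axis) of 8 genes in UMI sums of Tff1-high cells (red, left) and Epcam-rich cells (blue, right) by library, with exact 95% Poisson intervals; open triangles are sums with 0 UMIs, drawn at the level of 3 counts. Cldn3, Cldn4, Cldn7, Rab25 and Lcn2 lie lower in every Tff1-high sum, Vim and Aldh3a1 higher, and Cdh1 differs by less. Sorted CAF 1 and all live 2 had under 10 cells of the other class and entered no fit.

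The third comparison set the members against cells with transcripts of at least 4 of Ttr, Sprr1a, Cyp2s1, Adh7, Gkn2 and S100g and no Tff1 limit. Of 272 such cells, the 116 of sorted CAF 1 and the 150 of all live 1 were used. Their median Tff1 per cell, in the unit used for the members above, was 54.3 and 76.9. In members of the same libraries it was 59.3 and 67.8. High Tff1 thus did not set the members apart from these cells. Higher in the members were 23 of 31 tested proliferation genes, and lower were 19 of 26 glycolysis and hypoxia genes and 15 of 36 glutathione and NRF2 genes. In edgeR's quasi-likelihood test blocked by library, 626 of 9057 genes passed (6.91%), of which 284 rose (3.14%) and 342 fell (3.78%) in Tff1-high cells. The compared cells were deeper, with medians of 14805 and 13142 UMIs in Tff1-high cells and 24148 and 26646 UMIs in the Sprr1a and Adh7 positive cells, and the rule counts detected cell cycle genes, which deeper cells reach at lower levels. The part of this in the proliferation calls was not tested. The count was 84 with DESeq2's test, 244 without the block and 405 after thinning to 5000 UMIs.

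Of 31 tested proliferation genes outside the rule 23 rose and 0 fell, with a median of 0.79 beside 0.0017 over all genes. Stmn1, a microtubule regulator of dividing cells, stood at 206 and 227 CPM in Tff1-high cells of sorted CAF 1 and all live 1, against 124 and 122 CPM in the Sprr1a and Adh7 positive cells (0.84 ± 0.10, adjusted p = 8.40e-05 by edgeR). Ccnd1, cyclin D1, which is not on this list, stood at 353 and 366 CPM, against 218 and 234 CPM (0.69 ± 0.09). Of the list, Cenpa, a centromere histone, rose by 1.12 ± 0.15 and Mcm3 by 0.76 ± 0.14. Lmnb1, a nuclear lamin that is not on it, rose by 0.96 ± 0.17. In each of these genes both Tff1-high sums lay above both compared sums. Of 19 tested mesenchymal transition genes 5 rose and 2 fell, with a median of 0.15; Cd44 rose by 0.77 ± 0.13 and Axl, a receptor kinase, by 0.97 ± 0.19.

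Of 26 tested glycolysis and hypoxia genes 19 fell and 0 rose, with a median of -0.52. Bnip3, a hypoxia-induced mitophagy gene, stood at 211 and 134 CPM in Tff1-high cells, against 460 and 439 CPM in the Sprr1a and Adh7 positive cells (-1.39 ± 0.11, adjusted p = 1.06e-06 by edgeR). Ero1l, an oxidoreductase of the endoplasmic reticulum, stood at 384 and 218 CPM, against 842 and 737 CPM (-1.42 ± 0.11). Car9, a hypoxia-induced carbonic anhydrase, fell by 1.15 ± 0.14. Of 36 tested glutathione and NRF2 genes 15 fell and 1 rose: Gstm1 stood at 288 and 266 CPM, against 610 and 561 CPM, and Gsta1 at 1017 and 1023 CPM, against 1730 and 1498 CPM. The members thus lay between Tff1-low cells and Sprr1a and Adh7 positive cells in Gsta1. The same order held for Gkn1, at 126 and 117 CPM in Tff1-high cells, against 227 and 347 CPM in the Sprr1a and Adh7 positive cells (-1.20 ± 0.13). Tff1 and Gkn2 were used to choose these classes, and genes that move with them were thereby chosen in part as well. Gsta1 also followed Tff1 across the members (Spearman's rho 0.29 in both libraries). The order of Gkn1 and of Gsta1 is therefore no independent result. Selenbp1, a selenium-binding protein of gut epithelium, had the largest drop among the named genes, with 43.6 and 25.7 CPM in Tff1-high cells, against 125 and 121 CPM (-1.82 ± 0.15). Anxa10 and S100a6 did not pass, with changes of -0.01 ± 0.07 and 0.10 ± 0.06.

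**Figure D5:**
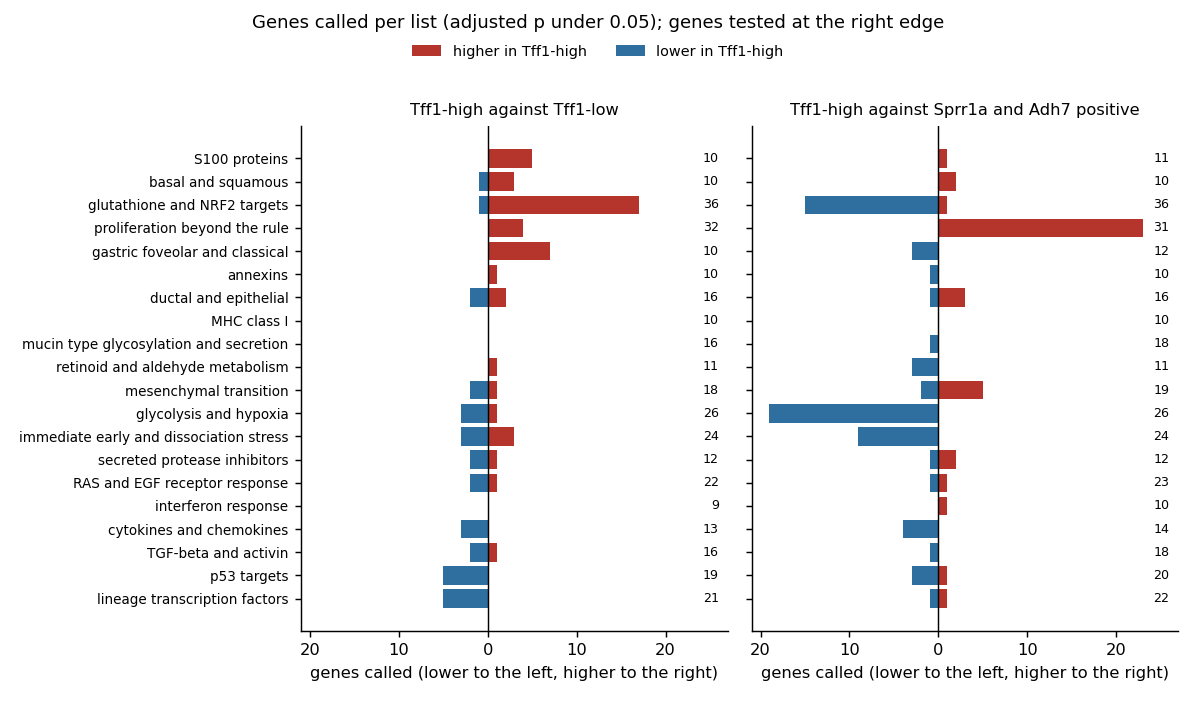
Number of genes per list called higher (red, to the right) or lower (blue, to the left) in Tff1-high cells against Tff1-low cells and against Sprr1a and Adh7 positive cells of tumor 1, with the number tested at the right edge. Of the glutathione and NRF2 list 17 genes were higher in the first comparison and 15 lower in the second, and of the proliferation list 4 and 23 were higher.

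Across the members, few genes followed Tff1. Among 5478 genes seen in at least 20% of the 156 members of sorted CAF 1, Spearman's rho with Tff1 (log of transcripts per 10000) was highest for Gkn2, a gastrokine used by the rule (0.50 there and 0.37 over the 143 members of all live 1). It was 0.42 and 0.37 for Crip1, a small zinc-binding protein, 0.42 and 0.17 for Gkn1, and 0.29 and 0.29 for Gsta1. The ranks of Cox6b1, S100a4, Ndufb8, Mgst3 and Lamp1, at 0.29 to 0.33 in sorted CAF 1, were not matched in all live 1, where they lay between -0.08 and 0.09. Anxa10 (0.04 in both) and Wfdc2 (0.08 and 0.01) hardly followed Tff1. The median over all genes was -0.07 and -0.05, and rho with the cells' UMI total was -0.13 and -0.11. These values describe cells that share a library and its depth and carry no test.

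Members of the sorted and the all live library of tumor 1 were nearly alike. Among 2664 genes of at least 50 CPM in either library, 8 differed by more than 2-fold (0.3%), of which 3 were higher (0.113%) and 5 lower (0.188%) in sorted CAF 1, with no test since each group held 1 library. The higher genes were Fabp1, a fatty acid carrier, at 57.3 CPM in sorted CAF 1 (exact Poisson interval 48.4 to 67.4) and 21.2 CPM in all live 1 (15.8 to 27.8), Sparc, a matrix protein, at 56.6 and 24.9 CPM, and Ffar4, a fatty acid receptor, at 69.1 and 33.8 CPM. The lower genes were Lyz2 at 0 CPM (up to 1.45) and 58.3 CPM (49.1 to 68.7), S100a8 and S100a9, neutrophil calprotectin, at 1.18 and 81.1 CPM and 0.785 and 61.9 CPM, Cxcl2, a chemokine, at 0.393 and 81.1 CPM, and Phgr1 at 38.1 and 96.6 CPM. Apart from Phgr1, an intestinal epithelial gene, the lower genes are genes of leukocytes, and the 8 neutrophil genes summed to 4.32 CPM in sorted CAF 1 and 199 CPM in all live 1; the part of leukocyte transcripts was not tested. With the 12 cells of sorted CAF 2 added, the all live arm is still 1 library, assumed to vary like the sorted arm, whose spread is that between tumors. In that fit edgeR called 8 of 9466 genes (0.0845%), all lower in the sorted libraries: Cxcl2, Chil3, S100a8, Lyz2, S100a9, Il1b, Cd74 and Ccl6.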

How the data were processed

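The authors deposited raw UMI counts per gene and cell barcode for 4 droplet libraries, with lists of barcodes and gene symbols. The reads were processed with CASAVA 1.4 and Cell Ranger 2.0.0 against mm10, per the submitters' processing notes. Tissue was digested at 37 C for 45 min, strained at 100 µm and had a viability above 75%, per the labels' protocols. Cells entered with 500 genes or more and no more than 10% of UMIs from mitochondrial genes (7984 of 8282 barcodes). Scrublet in scanpy 1.11.5 called 27 doublets automatically (0.338%), too few to be relied on, so the highest scores at a fixed rate (157 cells, 5 of them members) were left out only as an alternative. A total of 31 barcodes occurred in more than 1 library.

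UMIs were summed per class and library, and classes were compared with edgeR 4.0.16 (R 4.3.3): TMM scaling, filterByExpr, quasi-likelihood test, two-sided, Benjamini-Hochberg over all genes tested, with the library as a block. The library is a shared source by design. Sums of at least 20 cells were planned. No library had 20 of both Tff1-high and Epcam-rich cells, so 10 were used there, and the sorted and all live members of tumor 1 are described without a test. The 26 genes of the rule stayed in the fits and were left out of counts of calls. In counts simulated for the comparison with Tff1-low cells (8399 genes), 78% of genes lowered and 80% of genes raised 2-fold were called, 100% of those raised 4-fold or 8-fold, and 0.134% of unchanged genes. The changed genes were drawn from the more abundant ones. Apart from the changes, every sum had the same expected share of each gene, with a fixed dispersion and no library effect. These rates therefore check the fit and do not give its power or false calls in the real data. Alternatives were DESeq2 1.42.0 and its size factors, no filter on low counts, thinning to 5000 UMIs, other Tff1, Epcam and mitochondrial limits, sums per tumor and left-out libraries, the last 2 of them at 10 cells for Tff1-low cells added after seeing the data.

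Named genes were the label markers, up to 15 higher and 12 lower genes per comparison by log2 fold change among calls of at least 50 CPM with 1 sign in every library, up to 4 called genes of lowest p per list, and the 10 genes most correlated with Tff1. Genes named outside that rule were chosen after their values were seen. The members, lists and tests were chosen with earlier results of these data known. Promoter windows came from RefSeq, and gene positions from GENCODE M21. The series text speaks of further technical replicates, which are not analysed here.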

Additional observations from a re-analysis of the deposited data

Results flagged for a closer look

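In the comparison of Tff1-high with Tff1-low cells, 9 called named genes moved one way in both libraries of tumor 1 and the other way in sorted CAF library 2. None of these differences between the tumors was tested, and tumor 2 gave 1 pair of sums, of 12 Tff1-high and 43 Tff1-low cells. Gpx2, the gastrointestinal glutathione peroxidase, differed by -1.92 and -1.37 on the log2 scale in sorted CAF 1 and all live 1, and by 2.61 in tumor 2, where it stood at 703 CPM in Tff1-high cells (165 UMIs) and 112 CPM in Tff1-low cells (95 UMIs). Rbp4, a retinol carrier, differed by 0.95 and 1.26 in tumor 1 and by -1.998 in tumor 2, at 59.7 CPM in Tff1-high cells (14 UMIs) and 250 CPM in Tff1-low cells (211 UMIs). Aqp5, a water channel of secretory epithelia, differed by 1.12 and 0.93 in tumor 1 and by -0.14 in tumor 2 (12 and 48 UMIs). The gene 2810417H13Rik differed by 0.90 and 1.46 in tumor 1 and by -0.20 in tumor 2, on 4 and 17 UMIs, a count too low to set its direction. S100a4, a calcium-binding protein, differed by 0.70 and 0.86 in tumor 1 and by -3.68 in tumor 2, at 8.53 CPM in Tff1-high cells (2 UMIs) and 153 CPM in Tff1-low cells (129 UMIs). Mcm2, a replication licensing subunit, differed by 0.93 and 0.65 in tumor 1 and by -1.26 in tumor 2, on 1 and 13 UMIs. Id1, an inhibitor of differentiation factors, differed by 0.29 and 0.44 in tumor 1 and by -0.38 in tumor 2 (54 and 255 UMIs). Cftr, the chloride channel of ducts, differed by -0.71 and -1.05 in tumor 1 and by 0.35 in tumor 2 (26 and 73 UMIs). Cdkn2b, which encodes the cell cycle inhibitor p15, differed by -0.63 and -0.51 in tumor 1 and by 0.28 in tumor 2 (12 and 35 UMIs). Saa3, a further gene that turned in tumor 2, already differed in sign between the libraries of tumor 1.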

How the results depend on the processing

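Of 218 named or listed genes, 213 kept their direction under every alternative. Against Tff1-low cells, the 505 calls became 53 with DESeq2's test, 26 without the replicate block, 183 at 10 cells per sum (which adds tumor 2), 73 for sums per tumor, 101 without sorted CAF library 1 and 28 without all live library 1 (both at 10 cells), 41 without high doublet scores, 293 after thinning, 224 at a Tff1 limit of 5 and 333 at 20. Gpx2 turned to 0.47 for sums per tumor and 0.0095 at 10 cells, S100a4 to -0.067 for sums per tumor, and Bnip3 and Ero1l to 0.11 and 0.30 at a Tff1 limit of 5. Against Epcam-rich cells, the 230 calls became 67 with DESeq2's size factors, 91 with its test, 59 without the replicate block, 144 for sums per tumor, 80 after thinning, 40 at a Tff1 limit of 5 and 98 at 20; leaving out a library or a mitochondrial limit of 5% gave no fit. Against Sprr1a and Adh7 positive cells, the 626 calls became 84 with DESeq2's test, 244 without the replicate block and 405 after thinning, where Aldh3b1 turned to 0.045. The 8 genes past 2-fold between sorted and all live members became 21 after thinning and 1106 without the filter on low levels. No paired analysis was possible because each fraction gave 1 library of 20 or more members. The share in sorted CAF 1 became 9.42% at a Tff1 limit of 20. Over tumor 1, Tff1 became 7599 CPM at a limit of 5 and 10152 at 20, Gsta1 947 and 1103, Wfdc2 1542 at 5, and after thinning Anxa10 became 781, Gsta1 1105 and S100a6 28406. The causes were not tested. Few libraries and 12 member cells of tumor 2 limit all of this.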
